A study of Mus musculus with 4 samples.

Results

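Mature miRNAs were compared between epiblast-like aggregates (ELA) formed from ES cells kept in 2iL and ELA formed from ES cells kept in serum. The comparison covered all 1907 mature mouse miRNAs listed and used 2 of the 4 small RNA-seq libraries of the study. The other 2 libraries, from the ES cells themselves, were used to read which differences were already present before ELA formation. All cells were E14Tg2A, a mouse ES cell line of strain 129/Ola known to lack functional Hprt, in all 4 libraries alike. ES serum cells grew in fetal calf serum with LIF, and ES 2iL cells in serum-free N2/B27 medium with LIF, the MEK inhibitor PD0325901 and the GSK3 inhibitor CHIR99021. Both kinds of ELA were then floating aggregates in the same minimal N2/B27 medium, without LIF, serum or inhibitors, for 2 days. The ELA libraries are named here ELA 2iL and ELA serum after the medium of the ES cells, so they differ by an earlier and not by a present medium. Each library was made from the pooled RNA of 3 sets of experiments, which left 1 library per group and no measure of the spread between cultures.

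MiRNAs are short RNAs that guide Argonaute proteins, the core of the RNA-induced silencing complex (RISC), to messenger RNAs. Most of the pairing runs through the seed, bases 2 to 8 of the miRNA, so miRNAs with the same seed share many targets. Mouse ES cells carry the miR-290/miR-295 cluster as their main pluripotency miRNAs, and the related miR-302/miR-367 cluster is known from the primed epiblast that follows implantation. Serum cultures mix naive and more advanced cells, whereas 2iL holds cells near the naive ground state.

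The sequences below are those of most of the miRNAs with the largest differences between the ELA libraries, with partners they are compared with and the abundant miR-127-3p. They are shown 5′ to 3′ as RefSeq gives them for GRCm38.p6, with the seed in capitals. Also among the largest differences, miR-302a-3p, miR-140-5p and miR-669a-3p had no sequence matched by name to RefSeq, and miR-21a-3p is not shown.
The first set was higher in ELA 2iL. It holds 3 let-7 miRNAs with 1 seed and the miR-19 pair with another.
miR-211-5p: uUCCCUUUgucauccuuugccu
miR-19a-3p: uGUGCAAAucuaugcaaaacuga
miR-19b-3p: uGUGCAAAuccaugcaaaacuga
let-7a-5p: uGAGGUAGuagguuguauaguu
let-7f-5p: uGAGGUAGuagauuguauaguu
let-7g-5p: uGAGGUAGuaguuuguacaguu
miR-335-5p: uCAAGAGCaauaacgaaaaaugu
miR-181d-5p: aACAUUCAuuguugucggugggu
miR-125a-5p: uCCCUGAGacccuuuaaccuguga
In the second set, from 2 clusters with opposite differences, miR-294-3p, miR-295-3p, miR-302b-3p and miR-302d-3p share a seed that the rest of the set does not. The first 3 sequences belong to the miR-290/miR-295 cluster, higher in ELA 2iL, and the last 4 to miR-302/miR-367, lower in ELA 2iL.
miR-294-5p: aCUCAAAAuggaggcccuaucu
miR-294-3p: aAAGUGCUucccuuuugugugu
miR-295-3p: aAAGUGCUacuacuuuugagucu
miR-302b-3p: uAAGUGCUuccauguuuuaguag
miR-302c-3p: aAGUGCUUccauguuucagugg
miR-302c-5p: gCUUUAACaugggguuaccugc
miR-302d-3p: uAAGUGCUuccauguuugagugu
The third set shares no seed among its members and was lower in ELA 2iL, except miR-409-3p (8523 RPM in ELA serum, 8920 in ELA 2iL), which is shown because the arms of that hairpin differed.
miR-501-3p: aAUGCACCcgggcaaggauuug
miR-741-3p: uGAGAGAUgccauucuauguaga
miR-409-5p: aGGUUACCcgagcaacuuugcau
miR-409-3p: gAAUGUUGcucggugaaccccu
miR-146a-5p: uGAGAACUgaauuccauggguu
miR-99b-5p: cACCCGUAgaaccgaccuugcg
miR-653-5p: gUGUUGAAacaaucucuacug
miR-127-3p: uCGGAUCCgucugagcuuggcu

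Values are RPM, reads scaled to a library total of 1000000 reads on listed miRNAs, so each value is a share of a library and not an amount per cell. The ELA serum library held 4309257 reads and the ELA 2iL library 587363, a 7.34-fold gap in depth, while ES serum and ES 2iL held 8056984 and 2767016. A single read was worth 0.232 RPM in ELA serum versus 1.70 RPM in ELA 2iL. A free-text label exchanges the ES 2iL and ELA serum libraries, and the titles, source names and column names, which name stage and medium alike, were followed here. Intervals below are 95% intervals that cover counting error only, since reads carried no molecular identifiers and nothing measures the difference between 2 cultures of the same kind.

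The marker clusters were read first as a check of the labels. The miR-302/miR-367 cluster took 0.595% of reads in ES serum and 3.73% in ELA serum, and 0.00784% in ES 2iL and 0.708% in ELA 2iL. Both ELA libraries therefore stood above the ES library they came from. The miR-290/miR-295 cluster took 8.61% of reads in ES serum, 5.55% in ELA serum, 18.3% in ES 2iL and 14.1% in ELA 2iL. Markers of other cell types took small shares or were missing. Of the 4 endothelial miRNAs listed, 3 had no read in either ELA library, and neither liver miRNA had a read. Of 11 blood-lineage miRNAs 2, of 15 muscle miRNAs 1 and of 27 neural miRNAs 8 reached the level at which differences were counted, as did 15.8% of all miRNAs listed. For ELA serum and ELA 2iL respectively, the blood-lineage list summed to 0.0306% and 0.0157% of reads, the muscle list to 0.00615% and 0.0129%, the neural list to 0.116% and 0.132%, and the fibroblast and mesenchyme list, 3 of 12 above that level, to 0.634% and 0.450%. The blood-lineage list did not hold miR-142a, added after the data were examined. With it the list summed to 0.0856% versus 0.216%, higher in ELA 2iL.

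A total of 302 miRNAs had a mean log2(RPM + 1) of at least 5 over the pair of ELA libraries, which equals 31 RPM, and they held 99.7% of ELA serum and 99.6% of ELA 2iL reads. Of these, 63 (20.9%) were higher in ELA 2iL and 27 (8.94%) lower, by at least 1 on the log2 scale. The remaining 212 differed by less. As the limit is on the mean of the pair, some miRNAs passed it only through the library where they were high, miR-211-5p and miR-741-3p among them. Every 1 of the 90 differences had a counting interval clear of 0, and 60 had an interval that stayed beyond a difference of 1. The 27 lower miRNAs took 29.3% of the reads of ELA serum and 9.59% of ELA 2iL, and the 63 higher ones 6.61% and 18.6%. With 1 library a side there is no test of these differences. The median miRNA stood 0.35 higher in ELA 2iL. Relative to this median, 37 were higher and 47 lower (44.0% of those counted were higher, against 70.0% in RPM). The split was 28 higher and 57 lower under TMM factors (32.9% higher) and 25 higher and 61 lower under DESeq2 size factors (29.1% higher). Of the same 302 miRNAs, 9.27% were higher and 18.5% lower under TMM factors and 8.28% and 19.5% under DESeq2 size factors, the shares against which list counts under those scalings are read. The balance of directions therefore depended on the scaling, which shifts all miRNAs by nearly the same amount.

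**Figure D1:**
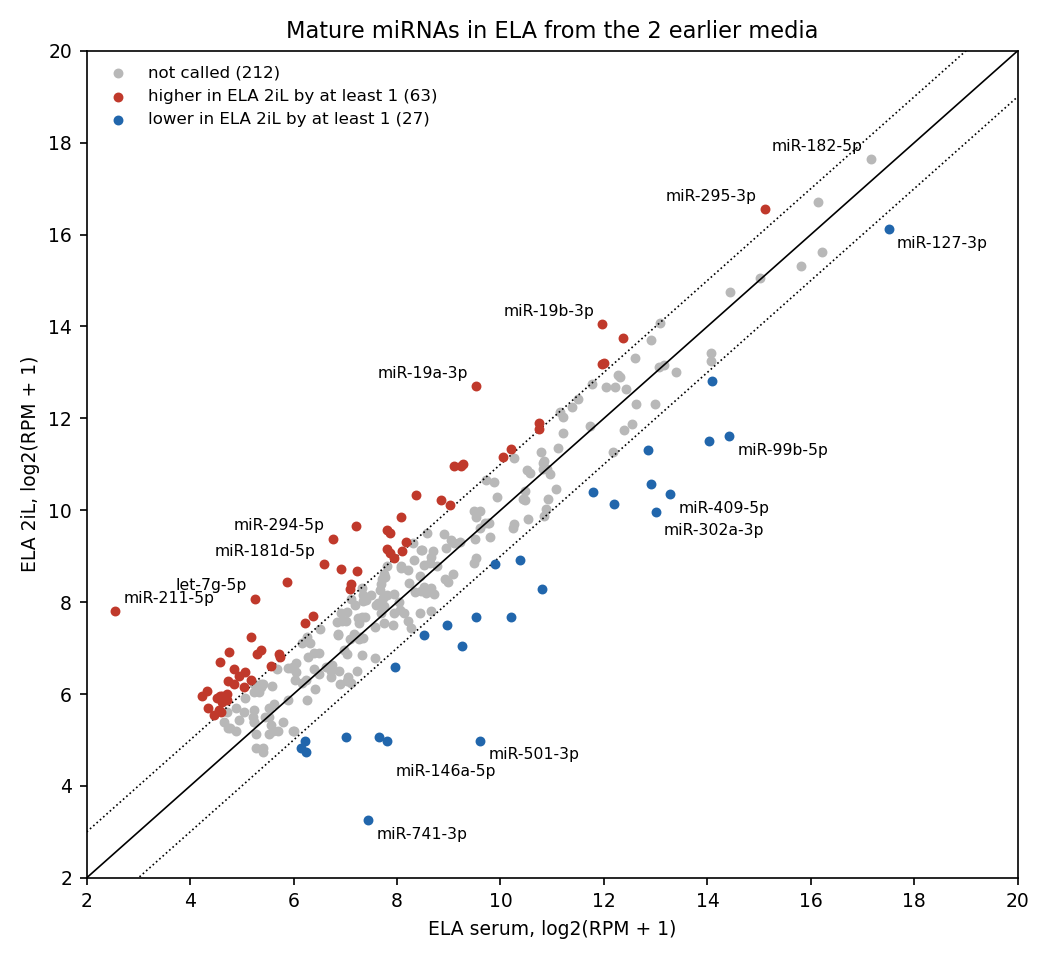
Level of each of the 302 miRNAs in ELA serum (x axis) and ELA 2iL (y axis), both as log2(RPM + 1), 1 library each. The solid line marks equal levels and the dotted lines a difference of 1; 63 miRNAs lie above the upper line (red) and 27 below the lower (blue), among them abundant ones such as miR-127-3p and miR-99b-5p.

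Above the level limit the difference was largest for miR-211-5p, which lies in an intron of Trpm1 on chromosome 7 (mm9, 71350692 to 71350797, plus strand). It was at 4.87 RPM (21 reads) in ELA serum versus at 223 RPM (131 reads) in ELA 2iL, 45.8-fold higher. Its level in ES 2iL was 5847 RPM and in ES serum 8.69 RPM, so the level of ELA 2iL was far below that of ES 2iL yet well above both serum libraries. MiR-196a-5p, just under the level limit and named after its values were seen, had 3.94 RPM in ELA serum versus 191 in ELA 2iL, 48.3-fold higher, from 17 and 112 reads. In ES cells it was at 24.2 RPM in serum and 359 in 2iL.

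Among abundant miRNAs, the miR-19 pair stood out. MiR-19a lies in the miR-17/miR-92 transcript on chromosome 14, known for driving proliferation. MiR-19b has a copy there and a copy on chromosome X, in the miR-106a/miR-363 cluster, and so does miR-92a. Reads of miR-19b-3p and miR-92a-3p cannot be given to either transcript and are counted here with miR-17/miR-92. MiR-19a-3p was at 737 RPM in ELA serum versus 6677 in ELA 2iL, a log2 difference of 3.18 (3.11 to 3.25). In ES cells it was at 403 RPM in serum and 1141 in 2iL. MiR-19b-3p was at 4010 RPM in ELA serum versus 16930 in ELA 2iL, a difference of 2.08 (2.04 to 2.11), against 1965 and 5032 RPM in ES cells. For both, the gap between media was wider in ELA than in ES cells, and the highest of the 4 libraries was ELA 2iL. Together they gave their seed, GUGCAAA, 0.475% of ELA serum reads and 2.36% of ELA 2iL reads, a 4.97-fold difference.

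The other miR-17/miR-92 members moved less. Of the 12 above the level limit, 5 were at least 1 higher and 0 lower, with a median of 0.87. MiR-92a-3p, the most abundant, was at 71866 RPM in ELA serum versus 107463 in ELA 2iL (0.58), and miR-17-5p at 1227 and 2264 (0.88). The cluster as a whole, most of it miR-92a-3p with its 2 loci, took 8.22% of ELA serum and 14.2% of ELA 2iL reads, whereas its shares in ES cells were 9.19% in serum and 8.64% in 2iL. Of its relatives, read against 20.9% of all miRNAs higher, the miR-106b/miR-25 cluster had 2 of 6 members higher (median 0.94, and 1 of 6 with medians of 0.50 and 0.46 under TMM and DESeq2 factors), and the miR-106a/miR-363 cluster 1 of 7, miR-363-5p, with a median of 0.23 that turned to −0.21 under TMM factors and −0.25 under DESeq2 size factors. Under each of those 2 scalings the miR-17/miR-92 cluster had 2 of 12 members higher, the miR-19 pair, against 9.27% and 8.28% of all miRNAs.

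Let-7 miRNAs restrain pluripotency factors and cell cycle genes in differentiating cells, and Lin28 blocks their maturation in ES cells. All 6 members above the level limit, miR-98 included, were higher in ELA 2iL, with a median of 1.94, and 4 of 6 stayed past 1 under TMM or DESeq2 scaling. Of all miRNAs 20.9% were higher in RPM, and 9.27% and 8.28% under those scalings. Only 6 of 23 members listed were above the limit, a mean of the pair, which let-7a-5p passed through its level in ELA 2iL. Without the limit the median of the family was 1.34, and with at least 10 reads in each ELA library it was 2.01. Let-7g-5p was at 37.1 RPM in ELA serum versus 269 in ELA 2iL (2.82, 2.53 to 3.18). Let-7f-5p was at 57.8 and 347 RPM (2.57) and let-7a-5p at 25.99 and 119 RPM (2.15). The 3 let-7 sequences above are closely similar, so reads of 1 may have been counted for another. The sum of the family does not depend on this. Summed, the family took 0.0278% of ELA serum reads (0.0263 to 0.0294, Wilson) and 0.117% of ELA 2iL reads (0.108 to 0.126). The whole family thus remained a minor part of either library.

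MiRNAs of the miR-290/miR-295 cluster, on chromosome 7, were higher in ELA 2iL in 8 of 9 cases, against 20.9% of all miRNAs, with a median of 1.36. MiR-295-3p, the most abundant, was at 35327 RPM in ELA serum versus 96518 in ELA 2iL (1.45, 1.44 to 1.46). MiR-294-3p was at 3988 and 9260 RPM (1.22), and its partner arm miR-294-5p at 107 and 667 RPM (2.63). The member that differed by less than 1 was miR-293-3p, with 4773 and 6575 RPM (0.46). In ES cells the same cluster had a median difference of 0.85. Because most members lay between 1.15 and 1.45, the count depended on scaling: 2 of 9 stayed past 1 under TMM factors and 1 under DESeq2 size factors, where 9.27% and 8.28% of all miRNAs did, with medians of 0.93 and 0.88 in the same direction.

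The miR-302/miR-367 cluster went the other way. Its 5 hairpins lie within 580 bases on chromosome 3 (mm9, 127248146 to 127248725), and those of miR-302a to miR-302d fall in an intron of Larp7, on the strand opposite to it. Of 9 members above the level limit 7 were lower in ELA 2iL and 0 higher, with a median difference of −2.20, and 8 were lower under TMM or DESeq2 scaling. Of all miRNAs 8.94% were lower in RPM, 18.5% under TMM and 19.5% under DESeq2 factors. MiR-302d-3p was at 16726 RPM in ELA serum versus 2930 in ELA 2iL (−2.51, −2.58 to −2.44). MiR-302b-3p was at 7744 and 1524 RPM (−2.34), and miR-302a-3p at 8176 and 999 RPM (−3.03). In ES cells the same 3 miRNAs had been further apart, with miR-302d-3p at 2451 RPM in serum and 27.5 in 2iL. From ES 2iL to ELA 2iL miR-302d-3p was 107-fold higher and from ES serum to ELA serum 6.82-fold higher. The gap between media was narrower in ELA than in ES cells. The 2 members that did not reach a difference of −1 were 5p strands: miR-302a-5p with 1845 and 940 RPM (−0.97), and miR-302b-5p with 48.0 and 54.5 RPM (0.18, −0.40 to 0.72).

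Although these clusters differed in opposite directions, miR-294-3p, miR-295-3p, miR-302b-3p and miR-302d-3p carry the same seed, AAGUGCU. Matched miRNAs with this seed made up 6.55% of ELA serum and 11.4% of ELA 2iL reads. In ES cells the shares were 6.55% in serum and 14.2% in 2iL. MiR-302c-3p has another seed, AGUGCUU. MiR-302a-3p had no matched sequence and is left out of the sum, so its 8176 RPM (ELA serum) and 999 RPM (ELA 2iL) are not in these shares. Of the 18 seeds with at least 1% of reads in an ELA library, 6 were at least 2-fold apart, 3 higher and 3 lower in ELA 2iL. The lower seeds were those of miR-127-3p (CGGAUCC, 18.6% and 7.13%), miR-99b-5p (ACCCGUA, 2.18% and 0.316%) and miR-410-3p (AUAUAAC, 1.74% and 0.725%). Those sums rest on the 1623 miRNAs matched by name to RefSeq, which held 96.01% and 96.7% of reads.

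**Figure D2:**
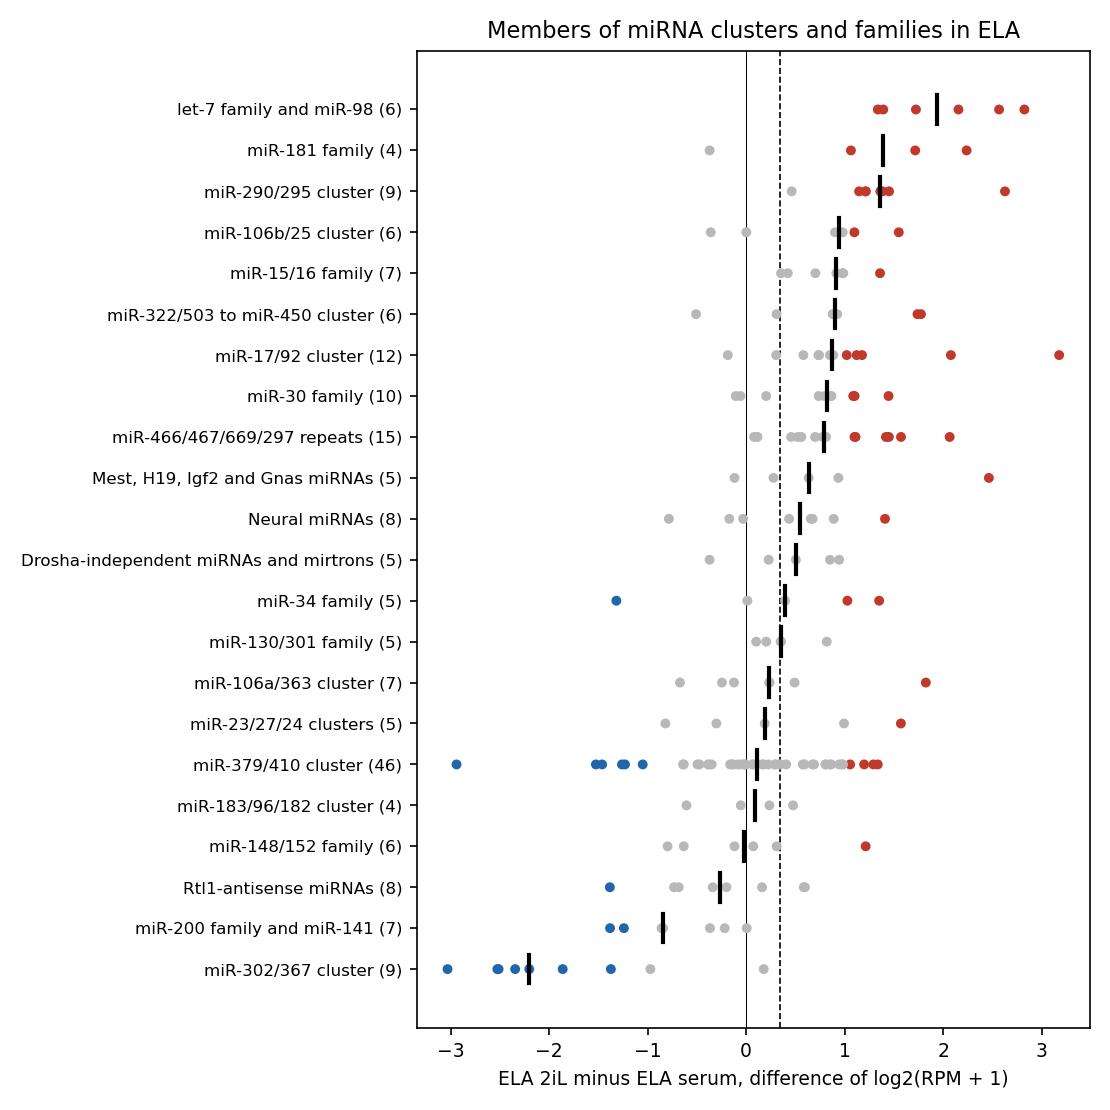
Difference of log2(RPM + 1), ELA 2iL minus ELA serum, for every member above the level limit in clusters and families with at least 4 such members (number in parentheses); red and blue points passed 1 and −1, black bars are medians and the dashed line is the median of all 302 miRNAs, 0.35. Let-7 lies wholly to the right, miR-302/miR-367 mostly to the left, and the miR-379/miR-410 cluster spreads from −2.94 to 1.34.

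Several other families had members counted as higher, against 20.9% of all miRNAs. In the miR-181 family, 3 of 4 were higher (median 1.39), and 2 of 4 under TMM or DESeq2 scaling: miR-181d-5p was at 95.6 RPM in ELA serum versus 455 in ELA 2iL (2.24), miR-181c-5p at 603 and 1983 (1.72) and miR-181c-3p at 52.4 and 111 (1.06). MiR-181a-5p, from other loci, was at 117 and 90.2 RPM. The miR-30 family had 3 of 10 higher (median 0.82), and 1 of 10 under TMM and 0 of 10 under DESeq2 scaling. The miR-322/miR-503 cluster, whose miR-322-5p shares its seed with miR-16-5p, had 2 of 6. MiR-322-5p itself was at 222.3 and 763 RPM. Repeat-derived miR-466, miR-467 and miR-669 miRNAs, many of which lie in an intron of Sfmbt2 and whose near-identical copies can share reads, had 6 of 15 higher. Under TMM factors 3 of 15 were higher, against 9.27% of all miRNAs, and under DESeq2 size factors 2 of 15, against 8.28%. MiR-335-5p, in an intron of Mest, was at 146 and 812 RPM (2.46).

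MiR-200 family members hold epithelial identity by repressing Zeb factors. Of 7 above the level limit, 2 were lower in ELA 2iL: miR-200b-3p at 3533 RPM in ELA serum versus 1355 in ELA 2iL (−1.38), and miR-200a-5p at 73.8 and 30.6 (−1.24). The median of the family was −0.84, and 4 of 7 were lower under TMM or DESeq2 scaling, while the share of all miRNAs lower went from 8.94% to 18.5% and 19.5%. MiR-429-3p, from the same locus as miR-200b, was at 439 and 441 RPM. The 4 miR-183/miR-96/miR-182 members, which include the most abundant miRNA of ELA 2iL, all differed by less than 1 in RPM, and 1 was lower under TMM or DESeq2 scaling. As a cluster they took the largest share of ELA 2iL reads of any list, 25.6%, against 22.4% in ELA serum. MiR-182-5p was at 146615 and 203934 RPM and miR-183-5p at 76088 and 49998, and the median of the cluster, 0.09, turned to −0.35 and −0.39 under TMM and DESeq2 scaling.

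Single miRNAs at the lower end included several of low read number. MiR-501-3p, in an intron of Clcn5 on chromosome X (mm9, 6818369 to 6818477, minus strand), was at 777 RPM in ELA serum versus 30.6 RPM (18 reads) in ELA 2iL, 25.4-fold lower (log2 −4.62, −5.42 to −4.0). Its ES levels were nearly the same, 687 RPM in serum and 26.7 in 2iL. MiR-741-3p, also on chromosome X, was at 173 and 8.51 RPM, the latter from 5 reads (−4.19, −5.97 to −3.12). MiR-146a-5p, known as a brake on NF-κB signalling, was at 223 and 30.6 RPM (−2.83). It is also on the blood-lineage list, whose other member above the level limit, miR-150-5p, was at 65.2 and 100.4 RPM. MiR-653-5p, in an intron of Calcr, was at 1774 and 310 RPM (−2.51). MiR-21a-3p was at 199 and 32.3 RPM (−2.59), while its abundant partner arm miR-21a-5p was at 4648 and 2450 (−0.92). Both arms are on the fibroblast and mesenchyme list, whose remaining member above the level limit, miR-143-3p, was at 1451 and 1886 RPM (0.38). The median of that list, −0.92, turned to 0.64 without the level limit and to 0.90 with at least 10 reads in each ELA library, and the part of such cells in this difference was not tested.

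MiR-99b and miR-125a lie 545 bases apart on chromosome 17, on the plus strand, and differed in opposite directions. MiR-99b-5p was at 21828 RPM in ELA serum versus 3146 in ELA 2iL (−2.79, −2.86 to −2.73). MiR-125a-5p was at 328 and 1292 RPM (1.98, 1.85 to 2.11). Let-7e-5p, which is transcribed with them and was under the level limit, was at 5.57 and 25.5 RPM (24 and 15 reads). The 3 miRNAs had the same directions in ES cells, where miR-99b-5p was at 34737 RPM in serum and 4557 in 2iL and miR-125a-5p at 900 and 2056. The other arm of the miR-99b hairpin, miR-99b-3p, was at 26.5 and 37.5 RPM in ELA (0.49, −0.23 to 1.17) and at 29.9 and 69.0 RPM in ES cells (1.18). The opposite direction at this locus was thus that of 1 arm, miR-99b-5p.

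**Figure D3:**
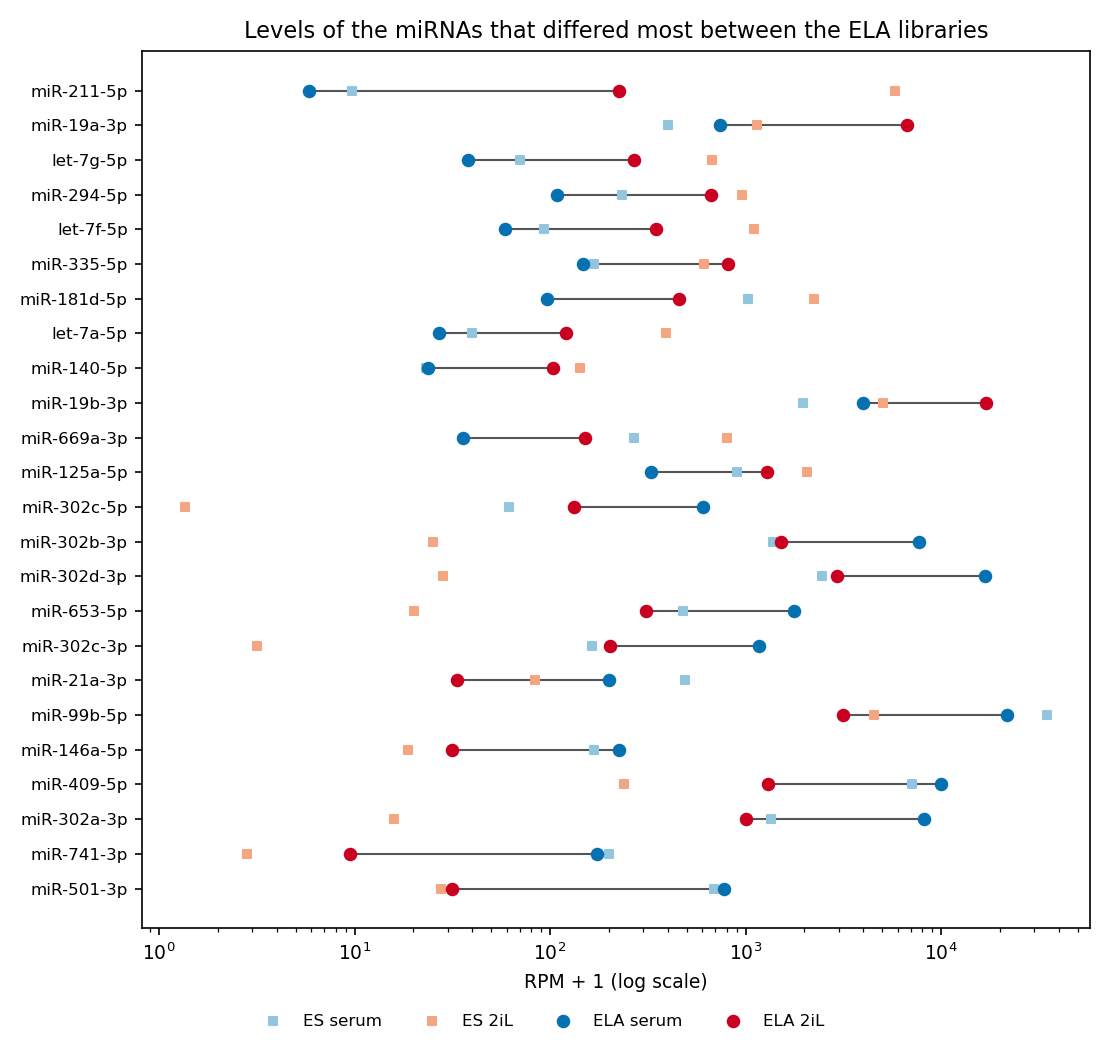
Level (RPM + 1, log scale) of the 12 miRNAs highest and the 12 lowest in ELA 2iL relative to ELA serum; circles are the ELA libraries, joined by a line, and squares the ES libraries, 1 library each. For all 24 the ES libraries had the same direction. So had 75.5% of the 302 miRNAs whose mean over the 4 libraries was above the level limit. MiR-19a-3p, miR-19b-3p and miR-335-5p peaked in ELA 2iL, and the lower 12, apart from miR-99b-5p and miR-21a-3p, were lowest in ES 2iL.

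The imprinted Dlk1–Dio3 domain on chromosome 12, whose miRNAs are expressed from the maternal allele, was read from 3 lists, the Rtl1-antisense and Meg3-proximal miRNAs and the miR-379/miR-410 cluster. Together they took 34.2% of reads in ELA serum versus 18.2% in ELA 2iL, and 29.1% and 10.4% in the corresponding ES cells. In RPM, of 57 above the level limit 7 (12.3%, against 8.94% of all miRNAs) were lower and 4 (7.02%, against 20.9%) higher, 29 differences were negative and 28 positive, and the median was −0.0032. The balance depended on scaling. Relative to the median of all miRNAs, 39 of the 57 were lower, and under TMM or DESeq2 factors 14 (24.6%) were past −1, 0 past 1, and 40 negative, where 18.5% and 19.5% of all miRNAs were past −1 under these factors. MiR-127-3p, antisense to Rtl1 and the most abundant miRNA of ELA serum, was at 185924 RPM in ELA serum versus 71252 in ELA 2iL (−1.38). MiR-381-3p was at 7354 and 2554 RPM (−1.53), miR-410-3p at 17364 and 7246 (−1.26) and miR-409-5p at 9986 and 1301 (−2.94). Higher in ELA 2iL were miR-667-3p at 81.7 and 208 RPM (1.34), miR-494-3p at 136 and 335 (1.29), miR-376c-3p at 232 and 533 (1.20) and miR-154-3p at 46.2 and 97.0 (1.06). The median of the 46 miR-379/miR-410 members alone was 0.11, and −0.32 or −0.37 under TMM or DESeq2 scaling, under which 0 were higher and 8 lower. The 3 lists do not hold every miRNA of the domain, and leave out miR-370. Of 60 miRNAs above the level limit placed on chromosome 12, 8 were lower and 3 higher in RPM, where 8.94% and 20.9% of all miRNAs were.

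Hairpins release 2 mature strands, 5p and 3p, and their ratio does not depend on how libraries are scaled. Among 141 hairpins with at least 100 reads on both arms together in each ELA library, the share of the 5p arm differed by a median of 1.53 percentage points. In 18 it differed by at least 10 points, up in ELA 2iL in 8 and down in 10, and in 16 of these the intervals of the 2 libraries did not touch. The major arm was the same in 133 hairpins and another in 8.

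The largest shift was that of miR-409, whose arms are shown above. Its 5p arm held 54.0% of 79759 reads in ELA serum (53.6 to 54.3) and 12.7% of 6003 reads in ELA 2iL (11.9 to 13.6). In ES cells it held 51.3% in serum and 3.73% in 2iL. Of the 6 hairpins past 10 points on the lists of that domain, 5 moved away from the 5p arm: miR-409, miR-379 (76.9% and 49.0%), miR-434 (54.3% and 32.8%), miR-377 (48.6% and 33.7%) and miR-154 (58.0% and 44.7%). The 5p arm of miR-382 held 60.9% and 72.5%. That of miR-370, in the same domain but on none of those lists, held 9.60% and 21.6%. MiR-302a moved towards its 5p arm, from 18.4% in ELA serum (18.05 to 18.8) to 48.5% in ELA 2iL (45.5 to 51.4). The 5p arm of miR-106b held 58.0% and 79.2%, and that of miR-221 60.3% and 40.8%. Of the 18 hairpins, 14 had the same direction between the ES libraries. The share among all 141 hairpins was not counted, so this is not read as a trait of the 18.

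**Figure D4:**
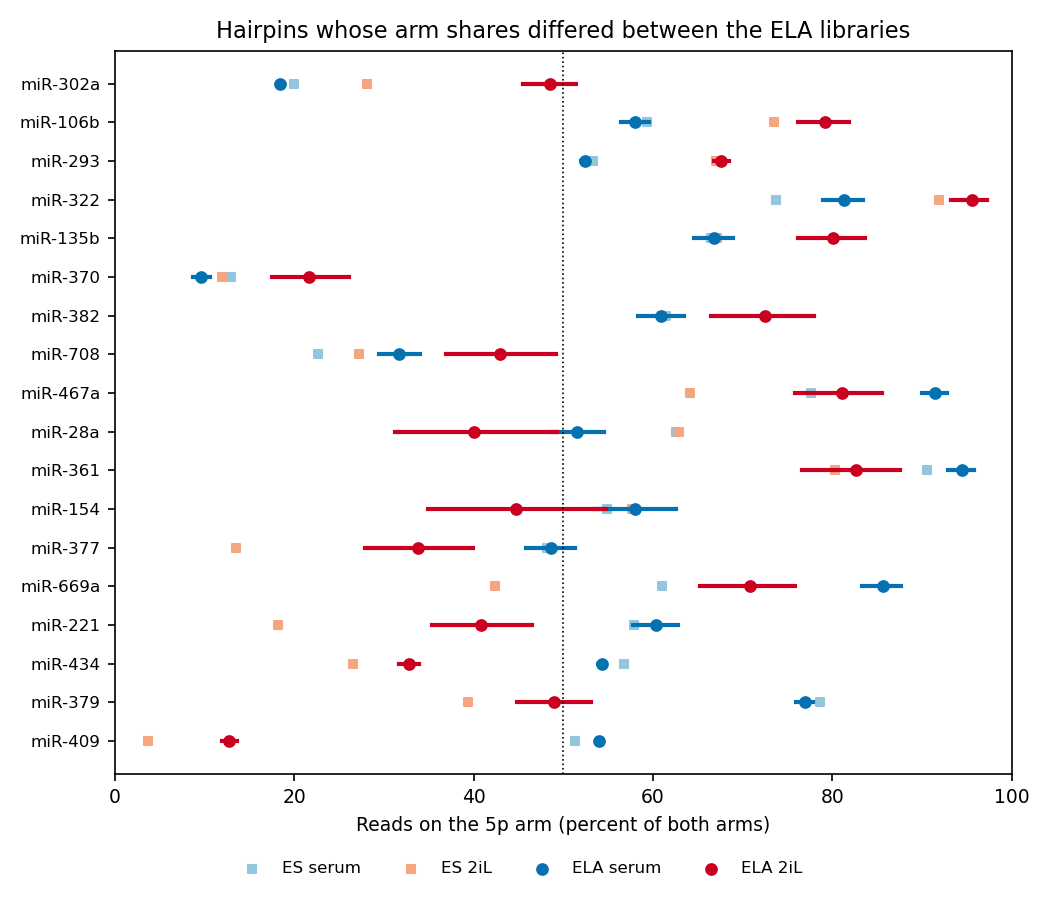
Share of reads on the 5p arm for the 18 hairpins that differed by at least 10 points between ELA serum and ELA 2iL; circles with bars are the ELA libraries with 95% counting intervals and squares the ES libraries. The miR-409, miR-379 and miR-434 hairpins were lower in both 2iL libraries, and the intervals of miR-28a and miR-154 touch.

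How much of the difference between media was left after 2 days was read against the ES pair, which shares no library with the ELA pair. Over the miRNAs whose mean over the 4 libraries was above the level limit, by coincidence again 302 but not the same set, 146 (48.3%) differed between ES 2iL and ES serum by at least 1, and 93 (30.8%) between the ELA libraries. Of the 146 differences, 65 were kept in ELA at that size and in the same direction, 42 higher and 23 lower, and 42 were lost, with less than 0.5 left. Of the 302, 0 were past 1 in opposite directions. Kept differences made up 44.5% of those in ES cells (45.2% of the higher and 43.4% of the lower) and 69.9% of those in ELA. Among miRNAs higher in ES 2iL the median went from 1.54 in ES to 0.97 in ELA. Among those lower it went from −2.11 to −0.69. Differences were smaller in ELA in 79 of 93 and 50 of 53 cases. Because these miRNAs were chosen for their ES difference, part of this is set by the choice. Over all 302, chosen for neither, the SD of the differences across miRNAs was 1.82 in ES cells and 1.16 in ELA, and with 1 library per group the 2 stages could not be tested against each other. Under TMM or DESeq2 scaling and after centring on the median, 3 miRNAs were past 1 in opposite directions.

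**Figure D5:**
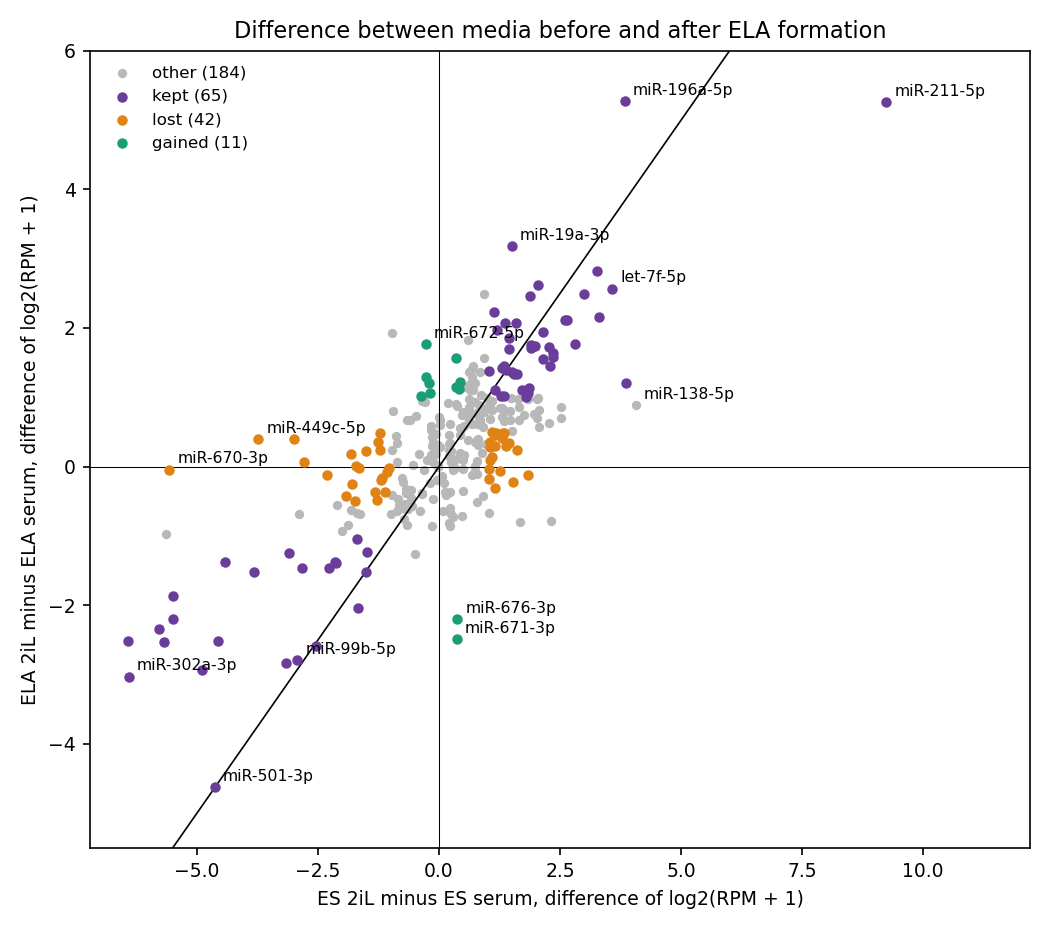
Difference between media, as log2(RPM + 1), in ES cells (x axis) and in ELA (y axis) for the 302 miRNAs; the solid line marks equal differences. Kept differences, 65 in number, are purple, the 42 lost orange and the 11 gained green; miR-19a-3p and miR-196a-5p lie above the line.

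The lost differences were led by miR-670-3p. It was at 46.4 RPM in ES serum and had no read in ES 2iL, but was at 154 RPM in ELA serum versus 150 in ELA 2iL. MiR-375-3p, a miRNA known from islet and other secretory cells, was at 102 and 11.9 RPM in ES serum and ES 2iL and at 416 and 550 in the ELA libraries. MiR-449c-5p, known from multiciliated cells, was at 60.6 and 3.61 RPM in ES cells and at 89.1 and 117 in ELA. For these 3 the low 2iL value of ES cells was no longer seen in ELA. MiR-221-5p, miR-18b-3p and miR-470-5p completed the 6 largest, and differed by −2.79, −2.32 and −1.91 in ES cells and by 0.07, −0.12 and −0.42 in ELA.

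Differences gained in ELA were few, 11 in number, 9 higher and 2 lower. The lower were miR-671-3p, at 71.7 RPM in ELA serum versus 11.9 in ELA 2iL (−2.49, 7 reads in ELA 2iL), and miR-676-3p, at 66.1 and 13.6 RPM (−2.20, 8 reads). Both were under the level limit in the ELA pair. MiR-672-5p was at 270 and 926 RPM in ELA (1.77), against 461 and 380 in ES serum and ES 2iL. MiR-23a-3p was at 40.6 and 123 RPM (1.57), miR-465c-5p at 25.1 and 63.0 (1.30) and miR-294-3p at 3988 and 9260 (1.22). The last 2 were past 1 by less than the shift of the median under TMM and DESeq2 factors, −0.45 and −0.49. Under these factors 14 and 11 differences were gained. In ES cells miR-294-3p differed by 0.44, just under the cut of 0.5. MiR-20a-5p and miR-92a-1-5p of the miR-17/miR-92 transcript were also among the 9.

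Taking stage and medium as separate terms over the 4 libraries, limma on log2(RPM + 1) with Benjamini-Hochberg adjustment called 0 of 599 miRNAs (0.0%) for the medium at an adjusted p of 0.05. The smallest adjusted p was 0.0899, and 176 miRNAs had an unadjusted p under 0.05. EdgeR's quasi-likelihood test on recovered reads called 64 (10.7%), 22 higher and 42 lower in 2iL, and DESeq2 called 81. The miRNAs and lists described above were chosen on libraries that this fit contains, so neither their p-values nor their counts are given. This medium term averages ES and ELA, rests on 1 residual degree of freedom, and is not a test of the ELA libraries on their own.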

How the data were processed

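Small RNA-seq libraries (TruSeq) had been made from total RNA of E14Tg2A ES cells and ELA. The authors trimmed reads with Trimmomatic, mapped them with Bowtie to mm9, assigned them by featureCounts to miRBase mature miRNAs (release 20) and deposited the result as RPM; versions and the treatment of reads with several mapping places are not given in the sources used here. Every RPM value above 0 was a whole multiple (tolerance 0.01) of that of 1 read in each library (100% of values), which gave back the reads. A floor of 3 reads equals 0.696 RPM in ELA serum versus 5.11 RPM in ELA 2iL.

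Differences were taken on log2(RPM + 1), which understates those of low miRNAs. A miRNA was counted when its mean was at least 5 and its difference at least 1. Intervals were exact (Clopper-Pearson) on the reads of a pair of libraries, or Wilson for shares. The design had allowed for counts; as RPM were deposited, limma 3.58.1 was used on miRNAs that reached 10 reads in 2 or more libraries (3.79 prior degrees of freedom, two-sided), with edgeR 4.0.16 and DESeq2 1.42.0 on recovered reads as alternatives (R 4.3.3). The fits were run on simulated data, where only the limma differences were held to a bound, so nothing is drawn from it on false calls. The miRNAs named were the 12 highest and 12 lowest, the 5 most abundant per ELA library, the 6 largest gained and lost, the hairpins and seeds with the largest values, and members of 38 lists; 17 of the 90 counted miRNAs were in no list. Members and lists were chosen with earlier results of these data known. Positions are from GENCODE vM1 (mm9), where each mature sequence shown with a position was found. Of the per-sample columns 0 were left out.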

Additional observations from a re-analysis of the deposited data

Results flagged for a closer look

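In 8 miRNAs the difference between media was at least 0.5 in both stages but of opposite sign in ES cells and in ELA. This contrast of the stages was not tested, since each value compares 1 library with 1 library. Lower in ES 2iL than in ES serum but higher in ELA 2iL than in ELA serum were miR-125b-5p (−0.98 in ES, 1.92 in ELA), miR-370-5p (−0.94 and 0.81), miR-7a-5p (−0.66 and 0.67) and miR-10a-5p (−0.60 and 0.67). Higher in ES 2iL but lower in ELA 2iL were miR-218-5p (2.31 in ES, −0.78 in ELA), miR-152-3p (1.67 and −0.80), miR-92b-3p (1.04 and −0.67) and miR-322-3p (0.79 and −0.51). MiR-92b-3p rested on the most reads, 8361 against 714 in the ELA pair. MiR-322-3p and miR-152-3p had 21 reads each in ELA 2iL, and the counting interval of miR-322-3p in ELA included 0 (−1.24 to 0.13). MiR-125b-5p was at 63.7 and 31.8 RPM in ES cells from serum and 2iL, and at 11.8 and 47.7 RPM (28 reads) in the corresponding ELA.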

How the results depend on the processing

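The ELA libraries on their own allowed no paired analysis, because each group has 1 library. Stage was a term only in the fit over all 4, which compared the media within each stage. No library could be left out. The 63 higher and 27 lower miRNAs became 28 and 57 under TMM factors, 25 and 61 under DESeq2 size factors, 37 and 47 after centring on the median (added after the data were examined), and 217 and 122 without the filter; with at least 10 reads in each ELA library 98 were higher. The median of 0.35 became −0.098, −0.14 and −0.026 under TMM, DESeq2 and no filter. Without the filter the 65 kept, 42 lost and 11 gained differences became 168, 89 and 94, and with totals without the 5 most abundant miRNAs 20 were gained. Opposite differences, 0 at first, were 3 under TMM, DESeq2 or centring, 7 without the filter, and 1 with at least 10 reads or without the 5 most abundant. For the medium term, calls went from 0 to 55 with TMM, 130 without the filter, 1 with a pseudocount of 10 RPM, 64 in edgeR and 81 in DESeq2. A minimum of 30 reads gave 30 hairpins past 10 points in place of 18. Without the filter 6 list medians changed sign: blood-lineage from −1.11 to 0.64, fibroblast and mesenchyme from −0.92 to 0.64 (0.90 with at least 10 reads), neural from 0.55 to −0.65, muscle from 0.61 to −0.082, miR-29 from −0.71 to 0.52 and the late-annotated miRNAs from 0.88 to −0.30. The cause of these shifts was not tested beyond the wider set of low miRNAs that the absent filter admits. TMM and DESeq2 factors shifted the median by −0.45 and −0.49, too little to turn the sign of a miRNA past 1; of 42 named miRNAs 4 smaller ones changed sign. Depth limits ELA 2iL: 83 miRNAs with over 3 reads in ELA serum had no read there.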

Other observations

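The blood-lineage list, 1 of 38, did not hold the name mmu-miR-142a, under which miRBase lists miR-142, a miRNA known from blood cells. MiR-142a-5p, named here after its values were seen, was at 549 RPM in ELA serum versus 1999 in ELA 2iL, and at 591 and 1605 in ES serum and ES 2iL. Its partner miR-142a-3p was listed at 0 in all libraries. MiR-451a, known from red cells, was at 1.62 RPM (7 reads) in ELA serum versus 3.41 RPM (2 reads) in ELA 2iL, under the floor of 3 reads in the latter.

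Chromosome X carries a miRNA cluster between Slitrk2 and Fmr1 (mm9, 64029932 to 65241626), with 20 annotated hairpins and 36 mature miRNAs matched, which the report touches only through miR-741-3p, miR-470-5p and miR-465c-5p. Of these 36, 4 were above the level limit (15.8% of all miRNAs listed were), 2 of them lower in ELA 2iL and 1 higher, against 8.94% and 20.9% of all miRNAs above it. MiR-741-3p (8.51 RPM in ELA 2iL) and miR-465c-5p (25.1 RPM in ELA serum) passed the limit only through the other library. These counts are therefore set in part by the limit. MiR-871-3p was at 500.3 RPM in ELA serum versus 180 in ELA 2iL, against 731 and 102 in ES serum and ES 2iL. As a whole the cluster took 0.104% of ELA serum and 0.0603% of ELA 2iL reads.

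MiRNAs higher in ELA 2iL came from the 5p arm in 64.7% of the 51 with a sequence, those lower in 38.5% of 26, and all in 49.0% of 259. Their median GC content was 45.5%, 44.5% and 47.4%. Only 2 miRNAs were over the floor of 3 reads in ELA 2iL and without a read in ELA serum, miR-5114 and miR-223-5p, with 4 reads each.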
